A study of Mus musculus with 8 samples.

Results

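The genes described are 10 cell surface genes of adhesion and junctions in mouse osteoblasts, chosen by name in the deposited count table: the immunoglobulin-type adhesion molecules Vcam1, Icam1, Ncam1, Alcam and Mcam, the cadherins Cdh2, Cdh11 and Cdh15, and the connexins Gja1 and Gjc1. All 10 were among the 43346 genes listed, and 8 of them passed the filter on low counts and were tested, as part of the 14991 genes tested in all. RNA came from MC3T3 cells, an established mouse line of osteoblast precursors that forms mineralizing matrix in culture, kept for 7 days with 10 mM beta-glycerophosphate and 100 µg/mL ascorbic acid. In the LLC-CM group (4 libraries) the culture also received 25% serum-free medium conditioned by LLC1 cells, a mouse lung carcinoma line, and the NCM group (4 libraries) is read as the vehicle control by elimination, because no label explains its abbreviation. The comparison asks how osteoblast RNA differs after exposure to medium conditioned by the tumor cells. Products of those cells and other differences in the medium cannot be told apart here. All samples are 1 cell line. No label says that the replicates are separate cultures, so the p-values reflect only how far these libraries vary, and that variation may be technical.

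Cells hold to each other and to passing cells through a few protein families. Immunoglobulin-type adhesion molecules bind integrins on leukocytes, other molecules of the same kind or extracellular matrix, and on many cells VCAM-1 and ICAM-1 are raised by inflammatory signals through NF-kB. Cadherins join like cells through calcium-dependent contacts that are anchored inside the cell by catenins, with N-cadherin and cadherin-11 the main members in osteoblasts and M-cadherin a protein of muscle precursors. Connexins form channels that pass ions and small molecules between neighbouring cells or to the outside, and Gja1 encodes the main connexin of osteoblasts and osteocytes.

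Library totals ran from 27264212 to 35573953 counts. Of 14991 genes tested, 36.9% passed a threshold of 0.05 on the adjusted p (quasi-likelihood F test of edgeR, Benjamini-Hochberg) and are referred to as called, 18.8% being higher and 18.1% lower in LLC-CM, and the median log2 fold change was 0.01. A count of 3 in a library, the limit that a count of 0 allows, came to between 0.0840 and 0.111 CPM (counts scaled to a common library size), which covers counting error only. All 9 markers fixed for osteoblasts were tested, with a summed level of 25575 to 30089 CPM in LLC-CM and 31969 to 41300 CPM in NCM. Of these, 8 fell and 1, Spp1, rose. In RNA from whole cultures, fewer cells of a type and less RNA per cell cannot be told apart.

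Vcam1 rose, Cdh2 and Gja1 fell, Cdh11 rose slightly and Ncam1 and Gjc1 did not pass the test. Of the 8 genes tested, 6 were called, 3 higher (Vcam1, Alcam and Cdh11) and 3 lower (Cdh2, Gja1 and Mcam), where 36.9% of all genes were called. Their median log2 fold change was -0.06, beside 0.01 for all genes tested. The libraries of the 2 groups did not overlap for 5 of the 8 genes, Vcam1, Mcam, Cdh2, Cdh11 and Gja1, against 36.3% of all genes tested. Both counts include Mcam, which passed the low-count filter through NCM alone and lost its call in most fits that left out a single library. Icam1 and Cdh15 had almost no reads and were not tested.

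**Figure D1:**
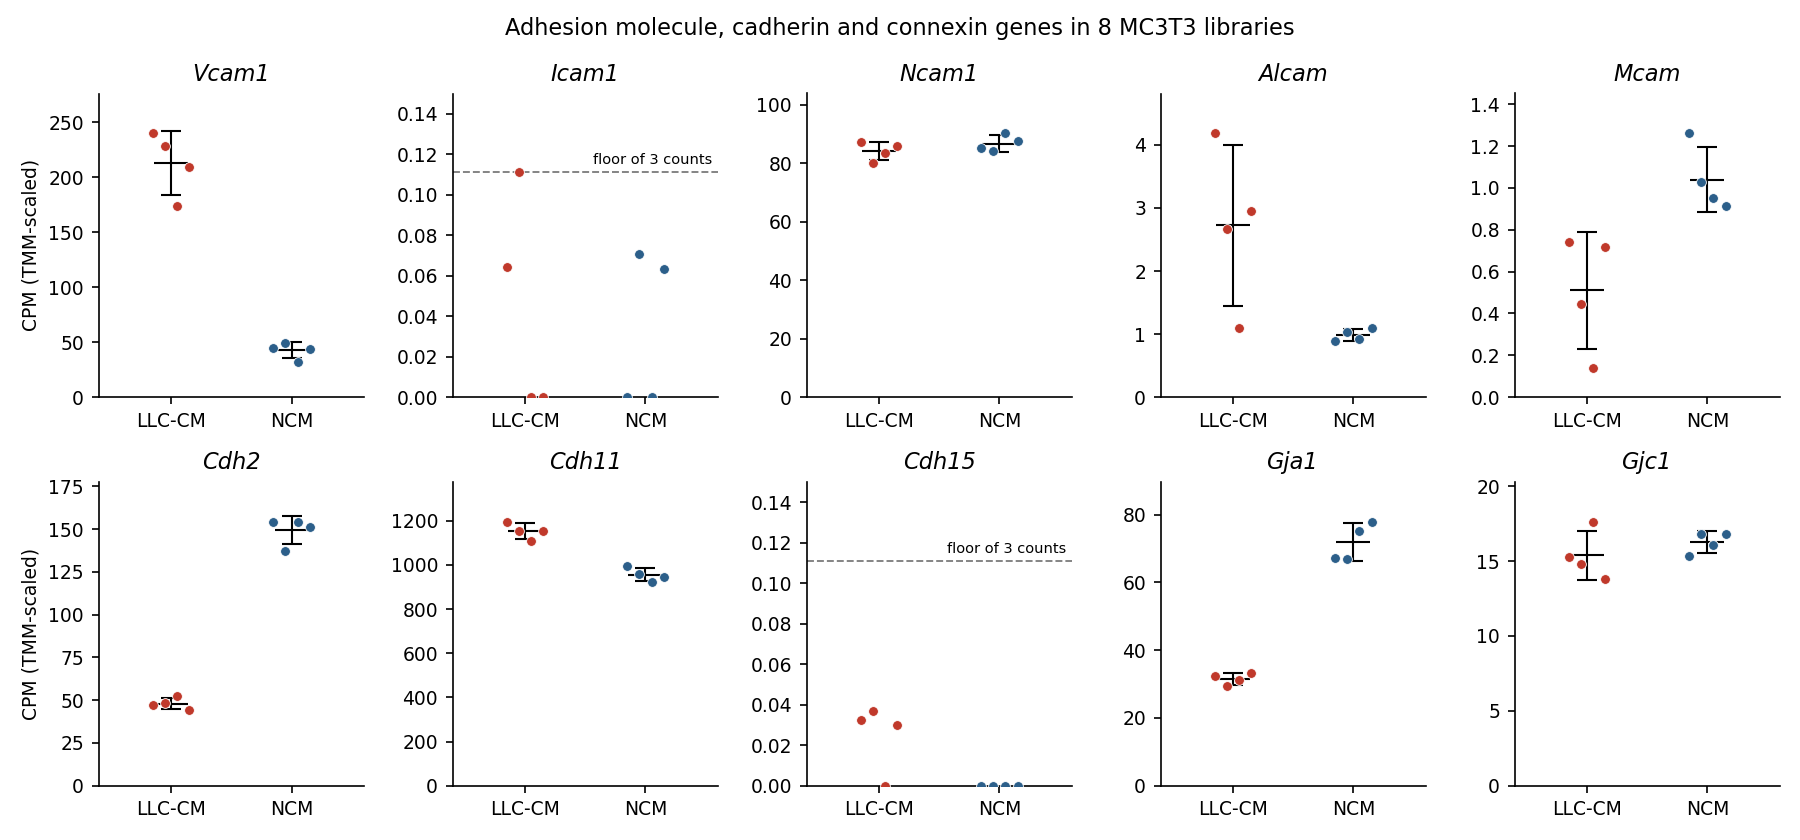
TMM-scaled CPM of each of the 10 genes, 1 panel a gene with its own axis from 0, LLC-CM left of NCM. Points are libraries and bars are the mean ± SD (n = 4), left out for Icam1 and Cdh15, whose dashed line is the highest floor of 3 counts (0.111 CPM). Vcam1 lies above and Cdh2 and Gja1 lie below every NCM library in LLC-CM.

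Vcam1 (ENSMUSG00000027962, mm10 chromosome 3, 116110020 to 116129688) encodes the adhesion molecule that binds leukocyte integrins carrying the alpha chain encoded by Itga4. Its level was 239.9, 228.1, 174.2 and 209.0 CPM in the LLC-CM libraries, and 44.9, 48.9, 32.1 and 44.0 CPM in the NCM libraries. The groups were far apart, and replicate 3 was the lowest library in each of them. Means were 213 ± 28.7 CPM in LLC-CM and 42.5 ± 7.21 CPM in NCM (SD, n = 4 each). That is a 5.01-fold higher level in LLC-CM, a log2 fold change of 2.32 ± 0.13 (SE; adjusted p in edgeR, 3.66e-08). On the scale of CPM per kilobase of gene length, Vcam1 ranked 832 among the 14991 genes tested in LLC-CM and 4543 in NCM.

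Icam1 (ENSMUSG00000037405, chromosome 9, 21015960 to 21028797) encodes the ligand of the leukocyte integrins that contain the chain encoded by Itgb2. It had 2, 3, 0 and 0 counts in the LLC-CM libraries, and 0, 2, 0 and 2 counts in the NCM libraries. Every library was at or under the floor of 3 counts, so Icam1 RNA was not detectable above it in either group, and no fold is given. In GENCODE M21, 11.7% of its exonic length overlapped the gene model Gm47079 on the other strand. That version of Icam1 holds 4360 exonic bases and the deposited one 2540, and the overlap with the deposited one was not tested. Of the 10 genes 5 had an entry in the RefSeq promoter table, namely Icam1, Gja1, Alcam, Mcam and Cdh15. The 250 bases before the start of Icam1 are shown because this gene stayed at the floor while Vcam1 rose. Capitals mark the matches to a kB-like motif spelled GGNNNTTCC, searched on both strands, at 153 and 84 bases before the start (RefSeq, GRCm38.p6, chr9:21015690-21015939, plus strand).
Icam1 promoter: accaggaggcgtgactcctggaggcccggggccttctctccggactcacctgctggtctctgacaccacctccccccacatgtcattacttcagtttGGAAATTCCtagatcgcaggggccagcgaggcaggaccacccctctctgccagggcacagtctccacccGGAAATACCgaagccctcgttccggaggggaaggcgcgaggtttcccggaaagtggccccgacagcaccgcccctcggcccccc
Of 32851 promoters of that length 15.7% held the motif, and of the 5 listed here Icam1 did. A match describes letters, not a bound site.

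Alcam and Mcam were read at low levels and their values varied most between libraries of LLC-CM. Alcam (ENSMUSG00000022636, chromosome 16, 52248996 to 52454074), which encodes an adhesion molecule that binds itself and the T cell receptor CD6, had 4.19, 2.66, 1.09 and 2.96 CPM in the LLC-CM libraries, and 0.887, 1.03, 0.918 and 1.10 CPM in the NCM libraries. LLC-CM replicate 3 lay within the NCM range, and the other 3 LLC-CM libraries lay above it. Alcam rose by 1.46 ± 0.33 on the log2 scale (SE, adjusted p = 0.00279). Without LLC-CM replicate 3 the log2 fold change was 1.72, with an adjusted p of 2.32e-05, and over all alternatives the adjusted p was at most 0.0249.

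Mcam (ENSMUSG00000032135, chromosome 9, 44134469 to 44142727) encodes a laminin-binding molecule of endothelial, mural and skeletal progenitor cells. It had 0.741, 0.444, 0.140 and 0.717 CPM in the LLC-CM libraries, and 1.26, 1.03, 0.954 and 0.915 CPM in the NCM libraries. No LLC-CM library reached the lowest NCM library, and LLC-CM replicate 3, with 5 counts, was the lowest of all. Mcam fell by 1.03 ± 0.37 on the log2 scale (SE, adjusted p = 0.0421). It passed the low-count filter through the NCM group, since only 3 LLC-CM libraries reached 0.330 CPM. The call was lost in 6 of 8 fits that left out 1 library: LLC-CM replicate 2 (adjusted p = 0.0744) or 3 (0.0719), or NCM replicate 1 (0.104), 2 (0.0762), 3 (0.0569) or 4 (0.0553). Over all alternatives the adjusted p ran from 0.0257 to 0.104.

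Ncam1 (ENSMUSG00000039542, chromosome 9, 49502136 to 49798925), which encodes a self-binding molecule best known from neurons and muscle, was the steadiest of the immunoglobulin-type genes. It ran from 80.2 to 87.3 CPM in LLC-CM and from 84.1 to 90.3 CPM in NCM, and the groups overlapped. The log2 fold change was -0.04 ± 0.05 (SE, adjusted p = 0.594), with a 95% interval from -0.16 to 0.07. The sialyltransferase genes St8sia2, St8sia4 and St8sia3, the first 2 of which encode the enzymes that add polysialic acid to NCAM, had 0 counts in every library.

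Markers fixed for other cells that carry these molecules were read at different levels. Of 9 endothelial markers, Cdh5, Kdr, Cldn5 and Tie1 had 0 counts in every library and 1 averaged at least 1 CPM. Their summed level was 1.92 to 2.48 CPM in LLC-CM and 2.81 to 3.71 CPM in NCM. Of 8 macrophage markers 4 averaged at least 1 CPM, and the sum was 23.0 to 36.5 CPM in LLC-CM and 15.1 to 20.2 CPM in NCM. Of the 5 macrophage markers tested, Lyz2, Fcer1g and Cd14 rose, while Csf1r and Cd68 did not pass, with log2 fold changes of -0.48 (adjusted p = 0.205) and 0.12 (0.711). Itgam had 0 counts in every library, and Ptprc had 0 counts over LLC-CM and 4 over NCM. The mural cell list, of 6 markers, was higher, with a sum of 204 to 263 CPM in LLC-CM and 308 to 400 CPM in NCM, and its 3 tested genes differed in direction. Cspg4 averaged 38.8 ± 11.4 CPM in LLC-CM and 162 ± 34.6 CPM in NCM (SD, n = 4 each) and fell, as did Notch3, by 0.48 on the log2 scale (adjusted p = 0.00804). Pdgfrb averaged 184 ± 15.5 CPM in LLC-CM and 156 ± 9.50 CPM in NCM (SD, n = 4 each) and rose (adjusted p = 0.0119), and Kcnj8 and Abcc9 had 0 counts throughout. The part of the macrophage and mural lists in the Vcam1 and Mcam differences was not tested.

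The osteoblast cadherins moved apart. Cdh2 (ENSMUSG00000024304, chromosome 18, 16588877 to 16809246), which encodes N-cadherin, had 47.0, 48.3, 52.2 and 44.5 CPM in the LLC-CM libraries, and 153.9, 137.1, 154.3 and 151.4 CPM in the NCM libraries. The highest LLC-CM library stood far below the lowest NCM library. Cdh2 averaged 48.0 ± 3.20 CPM in LLC-CM and 149 ± 8.17 CPM in NCM (SD, n = 4 each), 3.11-fold lower in LLC-CM. It fell by 1.64 ± 0.06 on the log2 scale (SE, adjusted p = 4.52e-11), which was the smallest adjusted p of the 8 genes tested.

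Cdh11 (ENSMUSG00000031673, chromosome 8, 102632995 to 102785111), which encodes cadherin-11, also called OB-cadherin, was by far the most abundant of the 10 genes. It had 1196, 1152, 1110 and 1152 CPM in the LLC-CM libraries, and 994, 961, 921 and 947 CPM in the NCM libraries. Every LLC-CM library was above every NCM library, by a small margin. The rise was 1.21-fold, or 0.27 ± 0.06 on the log2 scale (SE, adjusted p = 0.00383), and it was called in each of the other settings run, with an adjusted p of at most 0.0177. Among the genes tested, Cdh11 ranked 188 in LLC-CM and 195 in NCM by CPM per kilobase.

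Of the summed CPM per kilobase of Cdh2 and Cdh11, Cdh2 made up 2.13% ± 0.19 in LLC-CM and 7.55% ± 0.47 in NCM (SD, n = 4 each). The share ran from 1.98% to 2.40% in LLC-CM and from 6.94% to 8.05% in NCM, so Cdh11 predominated in every library. With the length of the longest GENCODE M21 transcript in place of the deposited length the shares were 4.64% in LLC-CM and 15.4% in NCM. These shares are descriptions without a test.

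Cdh15 (ENSMUSG00000031962, chromosome 8, 122848374 to 122867397), which encodes M-cadherin of muscle precursors, had 1, 1, 0 and 1 counts in the LLC-CM libraries and 0 counts in each NCM library. All were under the floor, and no fold is given. The muscle regulators Myog, Myf5, Myf6 and Pax7 and the muscle actin gene Actc1 had 0 counts in every library. The 10 muscle markers summed to 3.14 to 4.77 CPM in LLC-CM and 4.98 to 6.71 CPM in NCM, and only Des averaged at least 1 CPM.

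**Figure D2:**
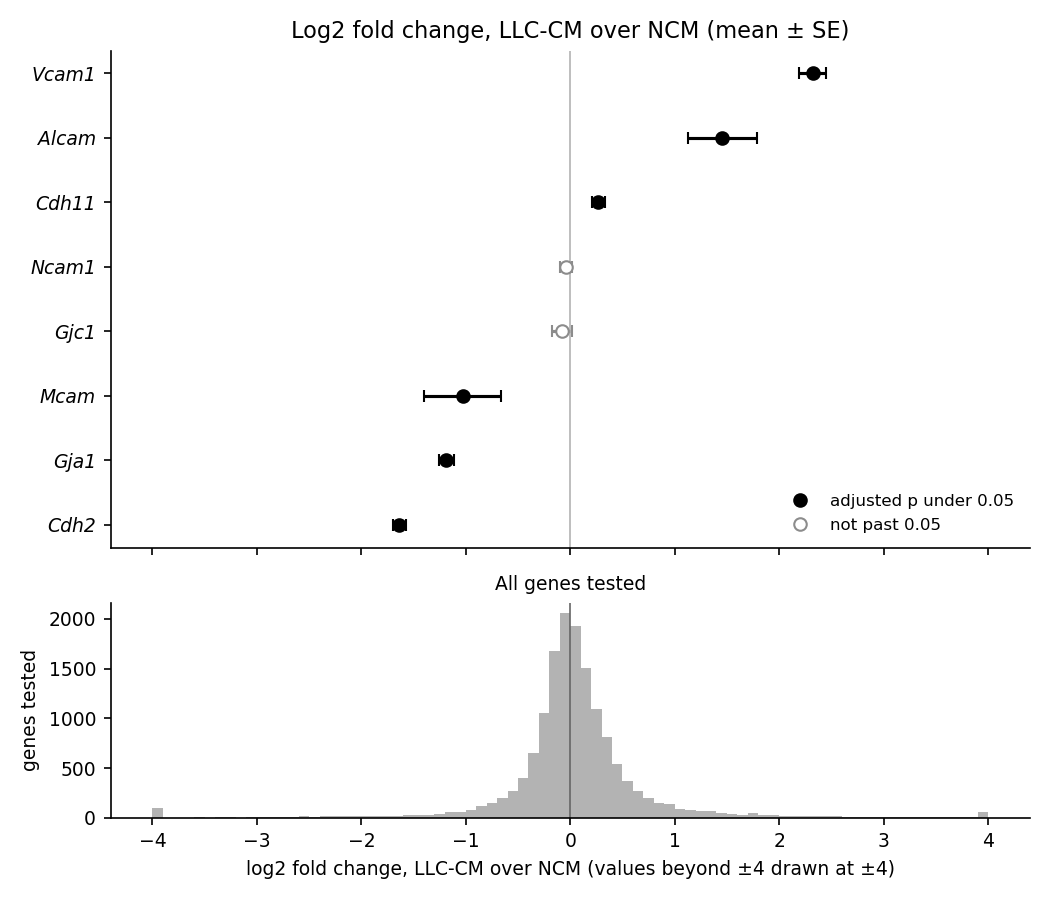
Top, log2 fold change of LLC-CM over NCM (horizontal axis) for the 8 genes tested, as the estimate ± SE, filled where the adjusted p was under 0.05. Bottom, the number of genes tested at each log2 fold change, with a median of 0.01. Vcam1 lies highest at 2.32 and Cdh2 lowest at -1.64, and Alcam and Mcam have the widest error bars.

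Of the connexins, Gja1 fell and Gjc1 did not pass the test. Gja1 (ENSMUSG00000050953, chromosome 10, 56377300 to 56390419) had 32.4, 29.3, 31.2 and 33.2 CPM in the LLC-CM libraries, and 67.3, 66.8, 75.3 and 77.9 CPM in the NCM libraries. The groups did not overlap, and all 4 LLC-CM libraries were within a narrow range. Means were 31.5 ± 1.71 CPM in LLC-CM and 71.8 ± 5.63 CPM in NCM (SD, n = 4 each), 2.28-fold lower in LLC-CM. On the log2 scale Gja1 fell by 1.19 ± 0.07 (SE, adjusted p = 4.14e-09).

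The 250 bases before the Gja1 start are shown because this gene had the largest fall among those with a promoter entry. The AP-1 motif, spelled TGANTCA and the same on both strands, is in capitals and begins 19 bases before the start (RefSeq, GRCm38.p6, chr10:56377050-56377299, plus strand).
Gja1 promoter: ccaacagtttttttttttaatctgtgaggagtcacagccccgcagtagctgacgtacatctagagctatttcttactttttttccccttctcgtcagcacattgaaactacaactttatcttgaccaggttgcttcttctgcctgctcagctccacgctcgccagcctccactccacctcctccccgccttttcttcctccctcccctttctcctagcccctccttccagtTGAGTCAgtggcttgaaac
Of all 32851 promoters 6.75% held this motif, and of the 5 listed here Gja1 did. The motif was picked after sequences were seen, so its match here is a description only. No kB-like motif was found in this window.

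Gjc1 (ENSMUSG00000034520, chromosome 11, 102799579 to 102819700), which encodes another connexin of osteoblasts, ran from 13.8 to 17.6 CPM in LLC-CM and from 15.4 to 16.8 CPM in NCM. The NCM libraries lay inside the LLC-CM range. Its log2 fold change was -0.08 ± 0.09 (SE, adjusted p = 0.541), with a 95% interval from -0.28 to 0.12. Of the summed CPM per kilobase of the 2 connexins, Gja1 made up 76.7% ± 2.29 in LLC-CM and 87.6% ± 0.83 in NCM (SD, n = 4 each), or 64.3% and 79.4% by the longest transcript. Gja1 was therefore the larger part in both groups by either length.

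Ordered by mean CPM per kilobase of deposited length, the LLC-CM libraries ran from Cdh11 (273) through Vcam1 (62.6), Ncam1 (10.5), Gja1 (10.2), Cdh2 (5.95) and Gjc1 (3.08) to Alcam (0.383) and Mcam (0.152). In this group the libraries of Ncam1 and Gja1 overlapped, as did those of Alcam and Mcam. The NCM order was Cdh11 (227), Gja1 (23.1), Cdh2 (18.5), Vcam1 (12.5), Ncam1 (10.9), Gjc1 (3.25), Mcam (0.310) and Alcam (0.138), where Vcam1 and Ncam1 overlapped. Vcam1 thus stood next to Cdh11 in LLC-CM, whereas in NCM Gja1 and Cdh2 were above it. By the length of the longest transcript Cdh11 was again the highest in both groups, with Vcam1 next in LLC-CM. By that length Cdh2 was above Gja1 in both groups and Ncam1 above Vcam1 in NCM, so the order of these neighbours depends on the length used.

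**Figure D3:**
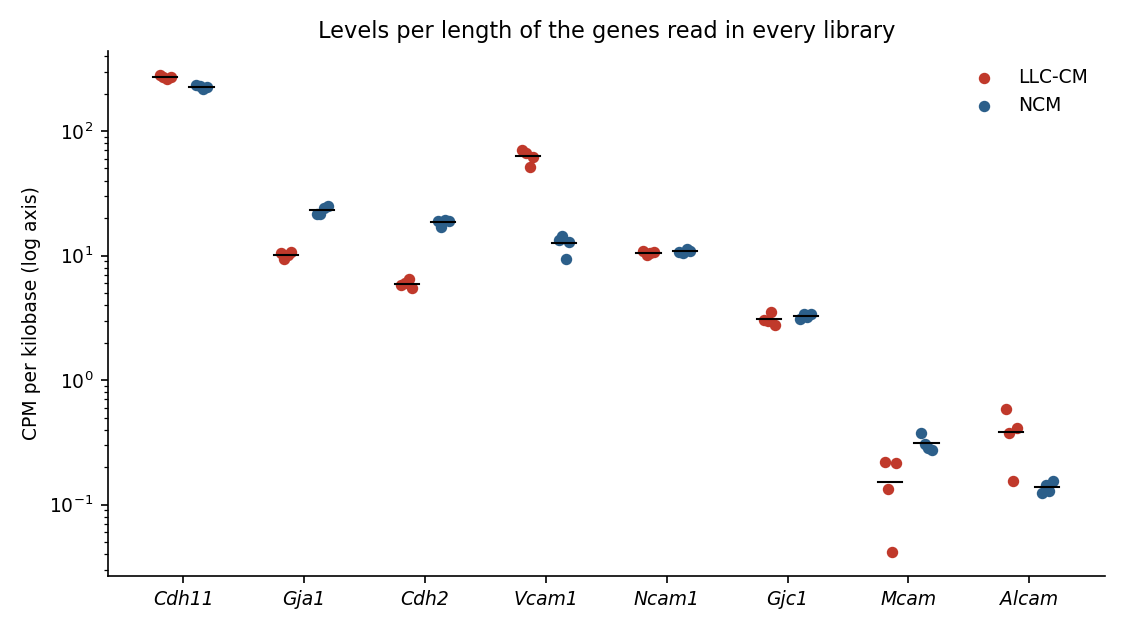
CPM per kilobase of deposited gene length on a log axis for the 8 genes read in every library, LLC-CM left of NCM in each pair. Points are libraries and lines are group means. Cdh11 is above 200 in every library, and Vcam1 comes next in LLC-CM.

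Within groups the abundant genes varied little. The coefficient of variation over 4 libraries was 3.06% in LLC-CM and 3.17% in NCM for Cdh11, and 3.70% in LLC-CM and 3.18% in NCM for Ncam1. For Cdh2 it was 6.66% in LLC-CM and 5.47% in NCM. Vcam1 varied more, by 13.5% in LLC-CM and 17.0% in NCM. Alcam and Mcam reached 46.7% and 55.1% in LLC-CM, against 10.2% and 15.0% in NCM.

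The genes most like each member in profile were found by the root mean square difference of log2 CPM, centred over the 8 libraries, among 10812 other genes with a mean of at least 5 CPM. For Vcam1 these were Gas1 (0.12 on the log2 scale), Osmr (0.13) and Vcan (0.14). Cdh2 was nearest to Epb4.1l2 (0.07), Me1 (0.07) and Jak2 (0.08), and Gja1 to Lzts1 (0.07), Mthfd2 (0.08) and Trim16 (0.08). Gas1, Osmr and Vcan had log2 fold changes of 2.19, 2.36 and 2.11, beside 2.32 for Vcam1. With 8 libraries that share a group split and scaling, these are descriptions.

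RNAs of catenins and junction scaffolds were called lower in LLC-CM more often than higher. Of 17 catenin and junction scaffold genes tested, of 22 listed, 10 fell and 2 rose, where 18.1% of all genes were called lower and 18.8% higher. The median log2 fold change was -0.29 beside 0.01 for all genes, and 1 of the 17, Ctnna3, passed the low-count filter through NCM alone. Vcl, which encodes vinculin, averaged 357 ± 15.3 CPM in LLC-CM and 644 ± 6.91 CPM in NCM (SD, n = 4 each) and fell by 0.85 ± 0.06 on the log2 scale (adjusted p = 2.8e-08). In GENCODE M21, 25.5% of its exonic length overlapped Ap3m1 on the other strand. That model holds 8191 exonic bases and the deposited one 5229, and the overlap with the deposited model was not tested. The cadherin-bound catenin genes Ctnna1 and Ctnnd1 fell by 0.29 ± 0.05 and 0.42 ± 0.06, and 61.2% of the exonic length of Ctnnd1 is shared with the gene model Gm28635. Ctnnb1, the beta-catenin gene, had a log2 fold change of -0.16 ± 0.07 and did not pass (adjusted p = 0.0861). Tjp1, whose product binds connexin tails, fell by 0.15 ± 0.05, with an adjusted p of 0.0485. Of the linkers of membrane proteins to actin, Ezr rose by 1.02 ± 0.08 and Msn fell by 0.64 ± 0.06.

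Of 21 other connexin and pannexin genes 5 were tested, 3 rose and 1 fell, with a median log2 fold change of 1.56. Of those that rose, 1 passed the low-count filter through LLC-CM alone. The shares called over all genes tested were 18.8% higher and 18.1% lower. Panx3, a channel gene of osteoblasts, averaged 272 ± 49.7 CPM in LLC-CM and 824 ± 36.6 CPM in NCM (SD, n = 4 each) and fell, 3.02-fold lower in LLC-CM (adjusted p = 2.33e-08).

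Of 26 other cadherin genes (Cdh, Dsc and Dsg symbols) 4 were tested, with a median of 0.80. Only Cdh26 was called (25%, beside 36.9% of all genes), and it rose by 1.27 ± 0.37 (adjusted p = 0.0226). Among the 3 that did not pass, 1 reached the level of the low-count filter in only 3 LLC-CM and 2 NCM libraries. The Cdh26 call was lost without LLC-CM replicate 2 (adjusted p = 0.0972) and without the low-count filter (0.0964). The count of called genes in this list was 2 without LLC-CM replicate 3 or NCM replicate 1, 2 or 3, and 3 without NCM replicate 4, where Cdh17 or Cdh23 were added. Cdh1, the epithelial E-cadherin gene, had 9 counts over LLC-CM and 13 over NCM, and Cdh5 had none.

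Of 39 other immunoglobulin-type adhesion genes 18 were tested, 4 rose and 7 fell, where 18.8% of all genes were called higher and 18.1% lower, with a median of -0.22. Cadm1 and Jam2 passed the low-count filter through NCM alone and Thy1 through LLC-CM alone, so these counts are no measure of the list. Pvrl2, a nectin gene, rose by 1.20 ± 0.14, Boc and Kirrel fell by 0.68 ± 0.07 and 0.38 ± 0.07, and Jam2 fell by 3.29 ± 0.24, to 0.581 CPM in LLC-CM against 5.76 CPM in NCM. Cadm1 had 0 counts over LLC-CM and 82 over NCM, at least 7.38-fold lower in LLC-CM against a floor of 3 counts per library, and the median was the same with Cadm1 at that bound. Among the leukocyte counter-receptors of VCAM-1 and ICAM-1, Itga4 had 0 counts over LLC-CM and 2 over NCM, and Itgal had 34 over LLC-CM and 11 over NCM. Of 13 counter-receptor genes 3 were tested, with a median of 0.53: Itgb2 and Itga9 rose by 3.25 ± 0.33 and 0.53 ± 0.10, and Itgb1 fell by 0.56 ± 0.08. Itgb2, with 23 counts over NCM, passed the filter through LLC-CM alone, so the count and median of this list are descriptions only.

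**Figure D4:**
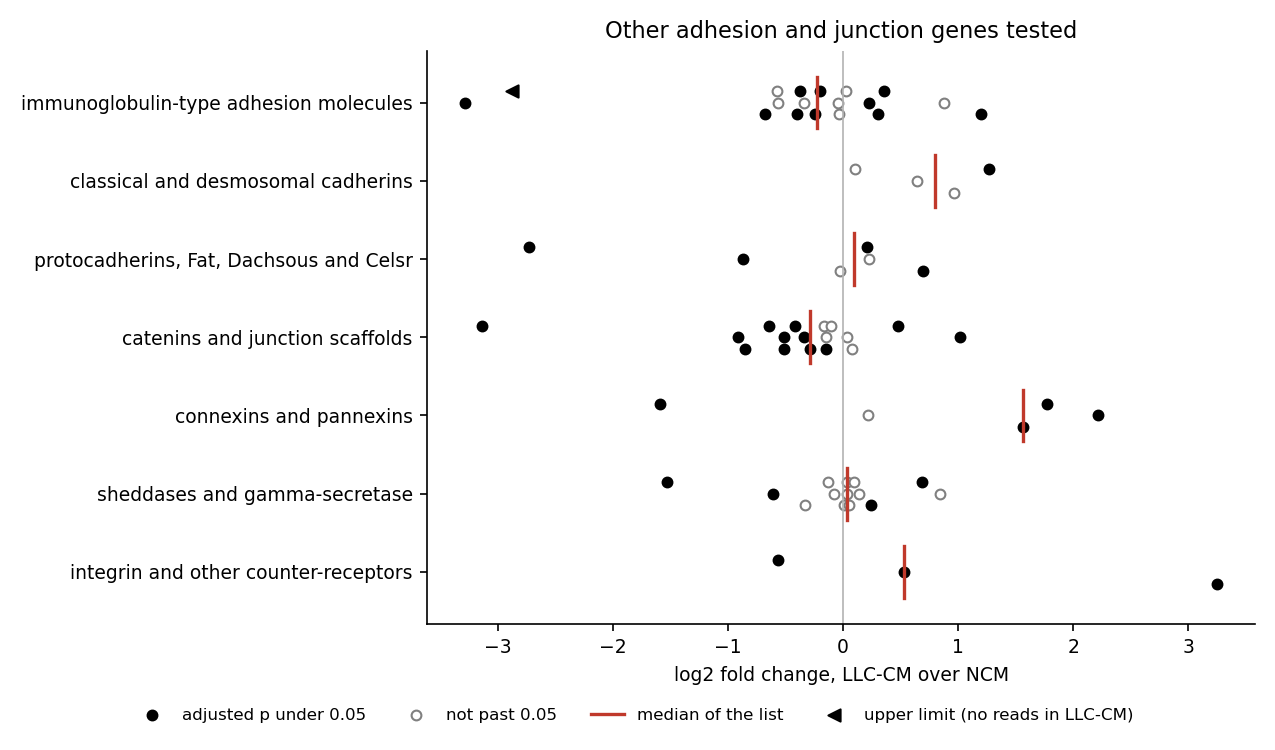
Log2 fold change of LLC-CM over NCM (horizontal axis) for the tested genes of 7 lists of other adhesion and junction genes, 1 point a gene, filled where the adjusted p was under 0.05, with the list's median as a red line. The triangle is the bound for Cadm1, which had no reads in LLC-CM. The list labelled classical and desmosomal cadherins also holds other Cdh genes. Most called catenin and scaffold genes lie left of 0, with a median of -0.29.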

How the data were processed

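Per the labels' protocols, poly(A) RNA of 8 MC3T3 samples was made into libraries from a 200 ng input, with 12 cycles of PCR. The deposited table holds raw read counts per gene as whole numbers, 1 column a library, with a gene length in bases. CASAVA, STAR, featureCounts and mm10 appear in the submitters' processing notes; no version is given in the sources used here. The kit does not mark strand, so reads of overlapping antisense genes cannot be told apart.

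Columns were matched to samples by title. The counts were fitted with edgeR 4.0.16 (R 4.3.3): filterByExpr, TMM factors, robust quasi-likelihood F test, no covariate, Benjamini-Hochberg adjustment over the 14991 genes tested, at 0.05. Fold changes are LLC-CM over NCM, and the standard error was taken as the size of the log2 fold change over the root of F. CPM uses TMM-scaled totals, and log2 CPM a prior count of 2. No 2 libraries of a group were as alike as 1 library deposited again would be (lowest chi-square per degree of freedom, 7.07), and the fit was tested on simulated data.

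The members, lists and named genes were chosen with earlier results of these data known. Named genes were the 10 members and, per list, up to 3 genes past the threshold with the smallest adjusted p and a mean of at least 5 CPM, and the 3 genes nearest in profile to a member. Ctnna1, Ctnnd1, Ctnnb1, Tjp1, Jam2, Cadm1, Itgb2, Itga4, Itgal, Cdh1, Cdh5, Cdh17, Cdh23, Ctnna3, Thy1 and the AP-1 motif were added after values or sequences were seen. Older symbols (Pvrl2) were matched by Ensembl identifier. Some genes that the rule or the lists would name are not reported here. Alternatives used limma 3.58.1 and DESeq2 1.42.0.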

Additional observations from a re-analysis of the deposited data

Results flagged for a closer look

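A single library stood far from the other 3 of its group in 2 of the 46 gene and group combinations examined, where chance gives about 1 in 20. None of the 8 adhesion, cadherin and connexin genes that were tested was among them, and Icam1 and Cdh15 were not examined. Adam12 and Boc had 55.4 and 21.7 CPM in LLC-CM replicate 4, against 45.5 to 47.2 CPM and 19.8 to 20.1 CPM in the other LLC-CM libraries.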

How the results depend on the processing

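Vcam1, Alcam, Cdh2, Cdh11 and Gja1 kept their direction and their call, and Ncam1 and Gjc1 their direction and lack of one, under 16 alternatives each: 3 other scalings, 2 other filters, DESeq2, limma-voom, the replicate block and leaving out each library. Mcam kept its direction, ranging from -1.27 to -0.70 (adjusted p 0.0300 to 0.104) when 1 library was left out, and had no value under a filter of 1 CPM in 4 libraries. Genes called numbered 5531, 785 in a test against a 2-fold change, and 4912 to 5501 with 1 library left out. Called cadherins of the wider list numbered 1 to 3 with 1 library left out and 2 with the replicate block. By the longest transcript the Cdh2 share was 4.64% in LLC-CM and 15.4% in NCM, and the Gja1 share 64.3% and 79.4%; which length is nearer to the RNA made was not tested. Across genes, the deviations of same-numbered libraries had r = 0.07, -0.04, 0.20 and -0.03. Those of differently numbered libraries had r from -0.23 to 0.18, and the main fit did not pair libraries by number. On principal component 3 (3.9% of the variance) the replicates stood in the same order in both groups, 1, 3, 2 and 4 from low to high. On component 2 (6.49%) the orders differed, with replicate 3 lowest in both. The replicate block moved the SE in both directions, from 0.13 to 0.07 for Vcam1 and from 0.06 to 0.07 for Cdh11. Whether the number marks a shared origin was not tested. With the replicate block 5473 genes were called and no call among the 10 genes changed. At this depth nothing can be said of Icam1 or Cdh15 below 3 counts a library.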

Other observations

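Genes of enzymes that cut cadherins, VCAM-1 and other adhesion molecules were called at a share near that of all genes, which is no result about them. Of 14 sheddase and gamma-secretase genes tested, of 15 listed, 2 rose, 2 fell and 10 did not pass (28.6% called, beside 36.9% of all genes), with a median log2 fold change of 0.03. Among the 10 that did not pass, 1 met the low-count filter through LLC-CM alone. Adam10 and Adam17, the main sheddases of N-cadherin and VCAM-1, had 127 ± 6.53 and 72.7 ± 3.49 CPM in LLC-CM, against 139 ± 10.9 and 67.9 ± 0.89 CPM in NCM (SD, n = 4 each), with adjusted p-values of 0.124 and 0.184 in edgeR. Adam9 rose by 0.69 ± 0.06 on the log2 scale (SE), and Adam12 fell by 1.53 ± 0.07.

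Large cadherin relatives changed in both directions. Of 21 protocadherin, Fat, Dachsous and Celsr genes 6 were tested, 2 rose and 2 fell, with a median of 0.09. Of all genes tested, 18.8% were called higher and 18.1% lower. Dchs2, a Dachsous gene, averaged 6.19 ± 0.67 CPM in LLC-CM and 41.1 ± 2.44 CPM in NCM (SD, n = 4 each) and fell by 2.73 ± 0.09 (edgeR, adjusted p = 1.04e-11). Pcdh18 fell by 0.87 ± 0.07 and Pcdh19 rose by 0.70 ± 0.07. Fat1, the most abundant of them, had 414 ± 37.8 CPM in LLC-CM and 421 ± 29.9 CPM in NCM and did not pass (adjusted p = 0.848). Adam10, Adam17 and Fat1 were named after their values were seen.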
